A study of Mus musculus with 2 samples.

Results

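The collagen chain genes of the mouse were followed in the cochlea 3 hours after intense noise. Members were all genes whose name on the array consists of Col, a number, the letter a and a number, which gave 44 of the 37067 gene names among the non-control probes. The one name of that form with a suffix, Col4a3bp, was left out because it encodes a ceramide transfer protein. The 44 names matched all 44 collagen chain genes of the RefSeq table used here (assembly GRCm38.p6), and they were carried by 91 probes in 109 spots per array.

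All animals were female C57BL/6 mice, a standard inbred strain, aged 7 weeks. In the noise sample, the cochlea was taken 3 hours after the end of a noise exposure that had lasted 2 hours, and in the baseline sample it was taken from animals that had heard no such noise. Each group had 1 array, so no difference below has a replicate check, no p-value was computed, and the precision is limited by the number of arrays. The labels do not give the number of mice or the sound level, and in whole tissue fewer cells of a type and less RNA per cell cannot be told apart. Of 12 marker genes of the cochlea, all 12 were measured on both arrays. Coch, which encodes the abundant inner ear protein cochlin, had relative levels of 64.1 (noise) and 50.5 (baseline).

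Collagens are the main structural proteins of the extracellular matrix. Alpha chains with a repeat of glycine and a pair of other residues wind into a triple helix, and the helices then assemble into fibrils, sheets or filaments. In the inner ear, type I collagen builds the bony capsule, types II, IX and XI are found in the tectorial membrane and in cartilage, and type IV forms the basement membranes of vessels, epithelia and the stria vascularis. In humans, mutations of the genes for the type IV chains alpha 3, alpha 4 and alpha 5 cause Alport syndrome, with kidney disease and hearing loss, and mutations of COL11A2 cause deafness.

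The glycine repeat is visible in the probes themselves. Of the 91 collagen probes, 4 (4.40%) had the letters GG at every 9th base from end to end, the spacing of glycine codons (GGN) in a collagen helix, against 5 of 56499 other probes (0.00885%). No probe of either kind had such a run on the opposite strand. Of those other 5, the probes for Scara5 and Fcnb belong to genes whose proteins are known to contain a collagen-like stretch. The 4 collagen probes are shown because they read the triple helix directly and because, for Col5a3 and Col6a3, they ran against another probe of the same gene. They are given 5′ to 3′ as listed in the array files, with the repeated GGN codons in capitals.
Col11a2: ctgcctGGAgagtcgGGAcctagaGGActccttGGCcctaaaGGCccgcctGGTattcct
Col5a3: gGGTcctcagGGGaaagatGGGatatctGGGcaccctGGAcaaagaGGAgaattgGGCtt
Col6a3: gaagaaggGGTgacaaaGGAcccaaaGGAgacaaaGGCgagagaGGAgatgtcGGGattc
Col15a1: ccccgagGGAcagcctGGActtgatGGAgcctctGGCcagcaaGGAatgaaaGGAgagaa
On the mm9 assembly, the Col11a2 probe lies at chr17:34189287-34189453 on the plus strand, the Col5a3 probe at chr9:20590066-20590795 on the minus strand, the Col6a3 probe at chr1:92689602-92690594 on the minus strand and the Col15a1 probe at chr4:47283786-47283845 on the plus strand. The probes are 60 bases long, and the first 3 of these positions span 167, 730 and 993 bases of genome, so those probes join sequence that is separated in the genome, whereas the Col15a1 probe lies in 1 uninterrupted stretch.

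The collagen family as a whole hardly differed between the noise and the baseline array. Levels are given as the scanner's processed signal divided by that array's 75th percentile (relative level), and a difference is the log2 ratio of noise over baseline, taken for each gene as the median over its probes that were well above background on both arrays. By this definition 78 of the 91 probes and 43 of the 44 genes were measured. The exception was Col6a6, a chain of type VI, whose only probe failed that criterion on both arrays. In all, 12 probes were above background on neither array. A single probe, for Col19a1, passed on the noise array alone, and the gene was measured through another probe, with a log2 ratio of 0.017.

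No collagen gene reached a 2-fold difference in either direction, where among all 26528 measured genes 0.611% were 2-fold or more above baseline on the noise array and 1.25% were 2-fold or more below it (1.86% together). With 43 genes, a count of 0 is close to that background. At 1.5-fold, 1 gene was higher (Col25a1) and 1 lower (Col6a4), against 3.02% and 4.99% of all genes (8.01% together). The log2 ratio was above 0 in 24 collagen genes and below 0 in 19, so the direction was mixed, as it was over all genes, of which 47.5% were above 0.

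The median log2 ratio of the 43 genes was 0.017, against -0.014 for all genes measured, and their SD across genes was 0.29, against 0.35. Of the 43 genes, 41 lay inside the range that holds the central 95% of all genes (-0.77 to 0.63), 28 within 0.25 of 0 and 41 within 0.5. Scaling on the 8 spike-in controls instead of the 75th percentile adds 0.22 to every log2 ratio, including the median of all genes, which becomes 0.21, so ratios between -0.22 and 0 change sign under that scaling while differences between genes stay as they are. Below, ratios are given on the 75th percentile scale.

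**Figure D1:**
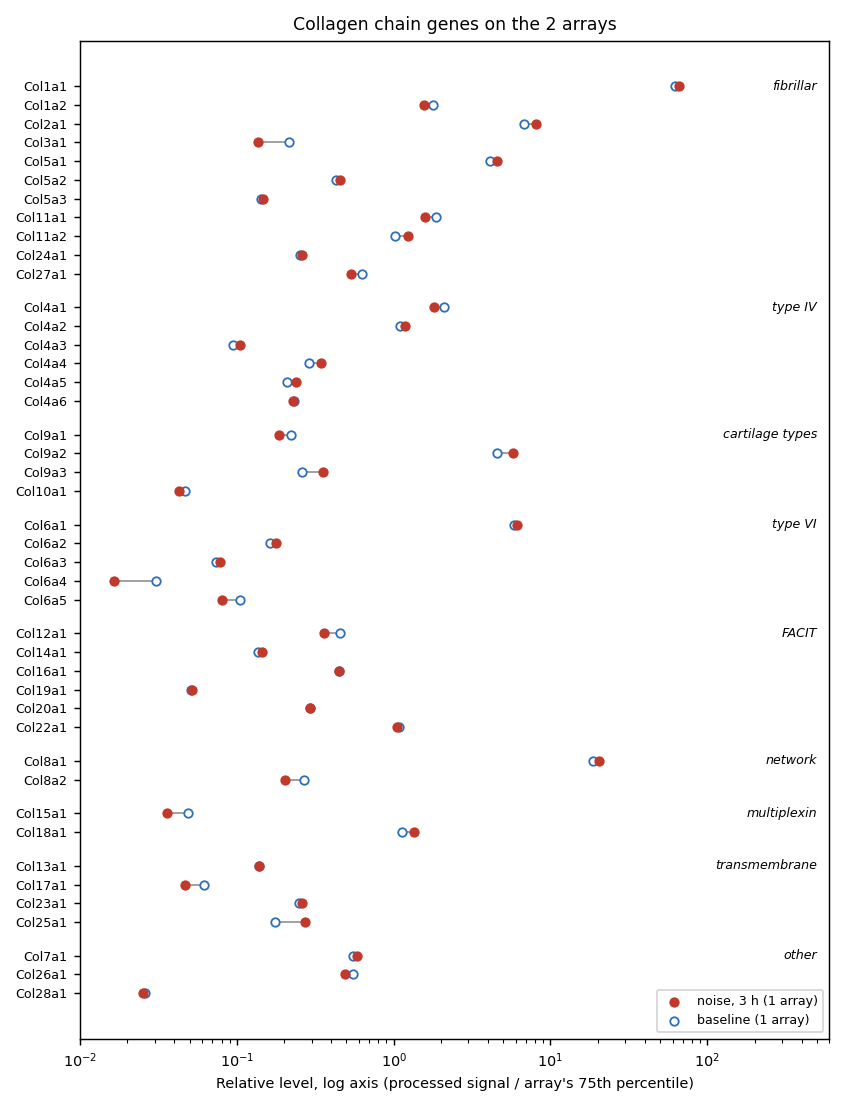
Relative level of each measured collagen gene (log axis) on the noise array and the baseline array, ordered by class. The points of a gene lie close together across the whole range of levels, and levels of different genes come from different probes and cannot be ranked.

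The technical error was measured in 2 ways. Repeat spots of the same probe differed in log2 ratio with an SD of 0.053 (median over 300 probes), and different probes of the same gene with an SD of 0.27 over 9348 genes and 0.31 over the 25 collagen genes with at least 2 measured probes. A difference between 2 genes that each rest on 1 probe therefore carries an SD of 0.38 from the choice of probe alone. Most collagen ratios were smaller than that, and neither figure contains the variation between animals.

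The fibrillar collagens, which form the cross-linked fibrils of bone, tendon, cartilage and connective tissue, had a median log2 ratio of 0.050 over 11 of 11 measured genes, with 7 above 0 and 4 below. That median turned to -0.18 with a stricter filter on dim probes and -0.087 with the brightest probe of each gene. It was -0.096 with normexp background, a model that corrects the mean signal for local background, where the median of all genes was -0.063. That alternative also adds an offset of 50 to every signal, which draws the ratios of dim probes toward a common value by construction. Type I collagen, made of the Col1a1 and Col1a2 chains and the main fibril of bone, was bright on both arrays. The Col1a1 gene level was 65.6 (noise) and 62.0 (baseline), a log2 ratio of 0.083. Of its 3 measured probes, those printed repeatedly lie at chr11:94813075-94813134 and chr11:94813115-94813174 (mm9). They overlap, so they are not independent readings. They gave a mean ratio of 0.072 (SD 0.048 over 8 spots with no outlier flag on either array) and 0.099 (SD 0.052 over 10 spots). On the 10-spot probe, the noise array ran from 55.3 through a median of 59.1 to 62.6, and the baseline array from 52.8 through 55.5 to 58.2. The spots of the noise array were thus higher on average, but the ranges overlapped. Matched by position on the arrays, the spots of this probe all had ratios above 0, from 0.034 to 0.19. Repeat spots carry technical error only. The 3rd probe, with a single spot, read 76.5 (noise) and 91.9 (baseline), a ratio of -0.26, so the direction of Col1a1 depended on the probe.

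Col1a2 read lower on the noise array with all 4 of its measured probes. Its brightest, at chr6:4490619-4490678 on the plus strand (mm9), had relative levels of 165 (noise) and 201 (baseline), a log2 ratio of -0.28, and the 4 probes ranged from -0.79 to -0.054 around a gene value of -0.30. The gap between the chains of type I, 0.38 for Col1a1 minus Col1a2, was larger than the SD of 0.23 that probe choice gives this pair. That SD counts the overlapping Col1a1 probes as independent, so it is too small. The brightest Col1a1 probe, at -0.26, was close to the brightest of Col1a2.

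Col3a1, the chain of the fine fibrils of vessel walls and soft tissue, had the lowest ratio of the class at -0.49, over 3 probes that ranged from -0.67 to -0.087. The brightest, at chr1:45405589-45405648 on the plus strand (mm9), read 6.73 (noise) and 7.15 (baseline), and the dimmer ones read 0.111 (noise) and 0.155 (baseline), and 0.136 (noise) and 0.216 (baseline). The direction was the same in all 3 probes, but the size of the gene value came from the dim ones, and the bright probe alone gave -0.087. Col5a2, the next gene along chromosome 1, lay at 0.088.

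The type V chains, which help set the diameter of type I fibrils, lay close to 0. Col5a1 had levels of 4.58 (noise) and 4.13 (baseline), a ratio of 0.15 from 1 probe, and Col5a2 had probe ratios of 0.14 and 0.033. Col5a3 had probes in opposite directions: the probe shown above read 0.0224 (noise) and 0.0186 (baseline), a ratio of 0.27, and a brighter one read 0.963 (noise) and 1.102 (baseline), a ratio of -0.20. The gene value of 0.038 is the middle of these. Col24a1 and Col27a1, fibrillar chains known from developing bone and cartilage, had ratios of 0.050 and -0.22. The probes of Col24a1 also ran in opposite directions. The brighter read 0.828 (noise) and 0.940 (baseline), a ratio of -0.18, and the dim one 0.0831 (noise) and 0.0683 (baseline), a ratio of 0.28. Its gene value is also the fibrillar class median.

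The cartilage types had the highest median among the 3 main classes, 0.26 over 7 of 7 measured genes, against 0.12 for type IV and 0.044 for the 8 fibrillar chains outside cartilage. The median of the other 36 measured collagens was 0.013. The class did not move as one, with 4 genes above 0 and 3 below, and its range of -0.26 to 0.44 lay inside the central 95% of all genes. Its median is the value of Col2a1, which rests on 1 probe and is the lowest of the 4 genes above 0. No member reached 1.5-fold, against 8.01% of all genes, and with 7 genes a count of 0 is close to that background.

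Col2a1, the chain of the type II homotrimer and the main fibril of cartilage, read 8.12 (noise) and 6.76 (baseline), a log2 ratio of 0.26 from its single measured probe at chr15:97806485-97806544 on the minus strand (mm9). The type XI chains, which are built into the same fibrils, gave opposite directions. Col11a2 had a ratio of 0.27 with both probes above 0: the probe shown above read 0.345 (noise) and 0.299 (baseline), and the brighter one, at chr17:34203113-34203172 on the plus strand, read 4.39 (noise) and 3.47 (baseline). Col11a1 had a ratio of -0.22, and its 3 probes ranged from -0.39 to -0.0089. The brightest of those read 11.05 (noise) and 11.12 (baseline), so the gene value rests on dimmer probes.

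Type IX collagen, which decorates the surface of type II fibrils, gave the widest gap of the chain pairs compared. Col9a2 read 5.80 (noise) and 4.54 (baseline), a ratio of 0.35 from 1 probe at chr4:120727698-120727757 on the plus strand (mm9). Col9a3 had the highest ratio of the class at 0.44, from probes that read 0.668 (noise) and 0.426 (baseline), and 0.187 (noise) and 0.161 (baseline), or 0.65 and 0.22 as ratios. Col9a1 ran the other way, with probes at 1.55 (noise) and 1.71 (baseline), and at 0.0220 (noise) and 0.0286 (baseline), which gave -0.14 and -0.38 and a gene value of -0.26. Both measured probes of Col9a3 were above 0 and both of Col9a1 below. Col10a1, the network-forming collagen of hypertrophic cartilage, was dim at 0.0430 (noise) and 0.0465 (baseline), a ratio of -0.12.

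Other markers of cartilage cells had a lower median. Of 6 chondrocyte markers 5 were measured, with a median log2 ratio of -0.20. Their summed level was 12.1 (noise) and 12.6 (baseline), most of it from Lect1 at 9.47 (noise) and 9.18 (baseline). Sox9, the transcription factor that drives Col2a1, Col9 and Col11 genes in cartilage, lay at -0.79 from probes of -1.34 and -0.23, and Acan, the cartilage proteoglycan aggrecan, at -0.35. Matn1, a cartilage matrilin, lay at 0.31 and Lect1, which encodes chondromodulin, at 0.045, so 2 of the 5 were above 0 and 3 below. The 12 cochlear markers had a median of 0.28, with 9 above 0, although Pou3f4, a transcription factor of the spiral ligament, lay at -1.22. Their summed level was 93.05 (noise) and 74.96 (baseline), most of it from Coch at 64.1 (noise) and 50.5 (baseline). With normexp background the cochlear median became 0.028, where the median of all genes was -0.063. Among the 6 osteoblast markers the median was 0.12 and the summed level 42.6 (noise) and 34.5 (baseline). The part of these cell types in the collagen values was not tested.

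**Figure D2:**
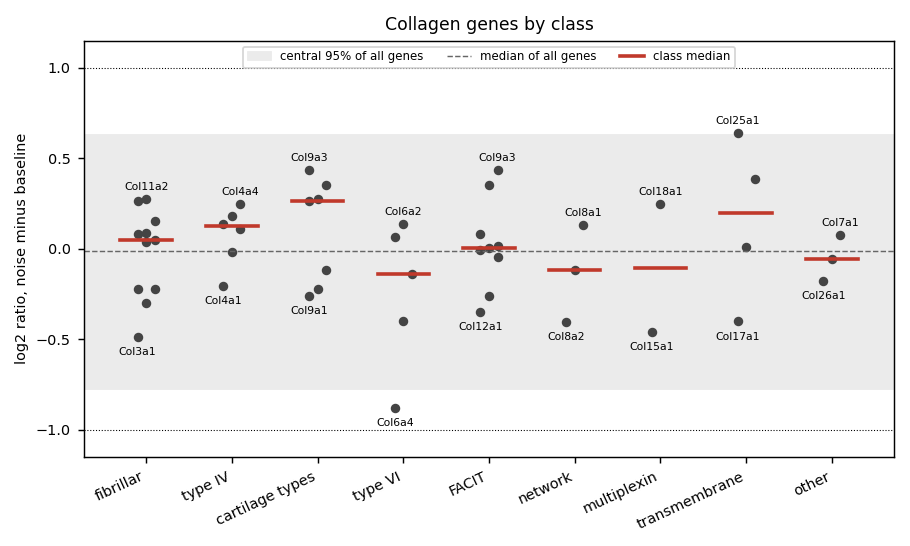
Log2 ratio (noise minus baseline) of each measured gene by collagen class, 1 point per gene, with a red bar at the class median, a grey band over the central 95% of all genes, a dashed line at the median of all genes and dotted lines at 2-fold. Type II and XI chains appear under both the fibrillar and the cartilage types, and type IX chains and Col10a1 also appear in 2 classes. The cartilage types have the highest median of the 3 main classes, 0.26, and no point passes 2-fold.

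Type IV collagen, the sheet-forming collagen of basement membranes, differed little. All 6 genes were measured, all 6 lay within 0.25 of 0, 4 above and 2 below, and the median was 0.12. The broadly used chains Col4a1 and Col4a2, whose genes lie head to head on chromosome 8 and share a promoter region, read 1.81 (noise) and 2.09 (baseline), a ratio of -0.20, and 1.18 (noise) and 1.09 (baseline), a ratio of 0.11. They thus differed in direction, by -0.32 for Col4a1 minus Col4a2, which is within the SD of 0.38 from probe choice.

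The chains of the specialised network of kidney and inner ear were close to each other. Col4a3 read 0.104 (noise) and 0.0948 (baseline), a ratio of 0.13. Col4a4, its head-to-head neighbour on chromosome 1, gave 0.25, from probes at 0.29 and 0.21. Col4a5, on the X chromosome, gave 0.18, from probes at 0.22 and 0.15. The 5 probes of these 3 genes that were measured were all above 0, and the genes differed by no more than 0.11. Col4a6, the neighbour of Col4a5 and a chain of smooth muscle and epithelial basement membranes, read 0.229 (noise) and 0.232 (baseline), a ratio of -0.019. With normexp background, Col4a3 became -0.059 and the median of type IV -0.020, so the sign of this class depended on the processing. Col4a3 is dim, and the normexp offset draws dim ratios toward a common value by construction. The median of all genes was then -0.063. Type IV thus stayed above all genes, by 0.043 with normexp background and 0.14 on the main scale.

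The other basement membrane genes, laminins, nidogens, perlecan and agrin, had a median of 0.0086 over 15 of 15 measured, with 8 above 0 and 7 below. The extremes were Lama3, the laminin alpha 3 chain, at -0.34 and Lamc3, the laminin gamma 3 chain, at 0.28. None of the 15 reached 1.5-fold, against 8.01% of all genes, and in a list of this size a count of 0 is not far from that background. Of 5 endothelial markers, all were measured, with a median of 0.090.

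Chains that build the same collagen type were compared in 15 pairs. The SD that probe choice gives to each difference was worked out from the 0.27 between probes and the number of measured probes of both genes, and ran from 0.23 to 0.38. Overlapping probes, as in Col1a1, were counted as independent. In 6 pairs the chains differed by more than their SD, and in 1 pair by more than 2 SDs. Probe choice alone would also put some pairs past these limits, and how many was not worked out. The pairs were picked and several share a gene, so they are not independent. The pair past 2 SDs was Col9a3 minus Col9a1 at 0.69, with an SD of 0.27, although with normexp background the chains moved to 0.23 and -0.13. The others were Col9a2 minus Col9a1 at 0.61, Col8a1 minus Col8a2 at 0.54, Col11a2 minus Col11a1 at 0.49, Col2a1 minus Col11a1 at 0.48 and Col1a1 minus Col1a2 at 0.38. Closest were Col4a3 and Col4a5, which differed by -0.048, and Col5a1 and Col5a2, which differed by 0.064.

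**Figure D3:**
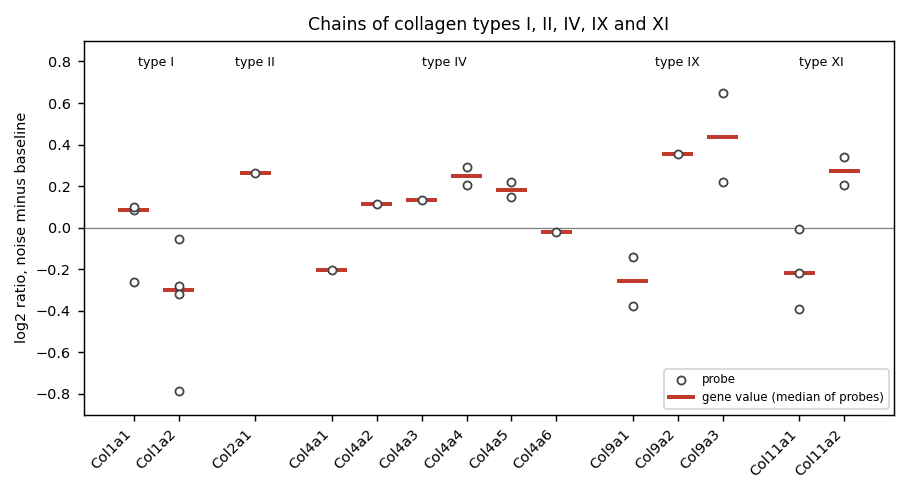
Log2 ratio (noise minus baseline) of the chains of collagen types I, II, IV, IX and XI, with a circle for each measured probe and a red bar at the gene value, the median of its probes. Within types, Col9a3 at 0.44 and Col9a1 at -0.26 are the farthest apart, and the type IV chains lie within 0.25 of 0.

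Type VI collagen, the beaded filament that links cells to the surrounding matrix, had a median of -0.14 over 5 of 6 measured genes, which became -0.038 with a stricter filter on dim probes and 0.066 with RefSeq mRNA probes only. Its lowest member, Col6a4, had the lowest ratio of all collagens at -0.88. Its measured probe read 0.0165 (noise) and 0.0304 (baseline), at the dim end of the array, and its other probe was not well above background. With normexp background correction, whose offset draws dim ratios toward a common value, it became -0.21. Col6a1 read 6.10 (noise) and 5.83 (baseline), a ratio of 0.066, and Col6a2 had the highest ratio at 0.14 over 3 probes that ran from -0.14 to 0.36. Col6a3 had a gene value of -0.14, the middle of 3 probes. The brightest, outside the helix probe shown above, read 1.62 (noise) and 1.78 (baseline), whereas the helix probe read 0.0783 (noise) and 0.0438 (baseline), a ratio of 0.84. The remaining probe, also dim, gave -0.34, so the helix probe stood alone in its direction.

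The FACIT collagens, which bind to the surface of fibrils, had a median of 0.0024 over 9 of 9 measured, from Col12a1 of tendon and bone surfaces at -0.35 to Col9a3 at 0.44. Among the network formers, the short-chain type VIII collagens of vessel and eye differed: Col8a1 read 20.4 (noise) and 18.6 (baseline), a ratio of 0.13, and Col8a2 lay at -0.41 with probes at -0.66 and -0.16. The multiplexins, whose C-terminal pieces include endostatin, also split, with Col18a1 at 0.25 and Col15a1 at -0.46. For Col15a1, the helix probe read 0.0496 (noise) and 0.0628 (baseline), a ratio of -0.34, and the other probe gave -0.57.

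The transmembrane collagens had a median of 0.20 over 4 of 4 measured and held the highest ratio of the family. The sign of that median depended on the processing. The class median was -0.035 with normexp background, where the median of all genes was -0.063. With the brightest probe of each gene it was 0.086, and with RefSeq mRNA probes only 0.34. Col25a1, best known from neurons and from amyloid plaques in the brain, had a gene value of 0.64. One of its measured probes, at chr3:129885684-129885743 on the plus strand (mm9), read 1.03 (noise) and 0.867 (baseline), a ratio of 0.25. The other, at chr3:130255844-130262803 on the plus strand, read 0.0726 (noise) and 0.0357 (baseline), a ratio of 1.02, and was the 1 collagen probe of 78 past 2-fold. The brighter probe alone thus put the gene at 0.25. Normexp background, whose offset acts most on the dim probe, put it at 0.15. The lowest of the class was Col17a1, the hemidesmosome collagen of epithelia, at -0.40. Among the rest, Col7a1, which forms the anchoring fibrils of epithelia, lay at 0.077, Col26a1 at -0.18, and Col28a1 at -0.056 from probes of -0.58 and 0.46 that differed by over 1 log2 unit.

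Probes of the same gene often disagreed. Of the 25 genes with at least 2 measured probes, all probes pointed the same way in 16 and both ways in 9, and the other 18 genes rested on 1 probe. Against probes of like level, 4 of 78 collagen probes (5.13%) lay outside the central 95%, which is close to the share left outside by construction. They were Col25a1 at 1.02, Col6a3 at 0.84, Col9a3 at 0.65 and Col8a2 at -0.66. For none of these genes did another probe pass the same limit.

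**Figure D4:**
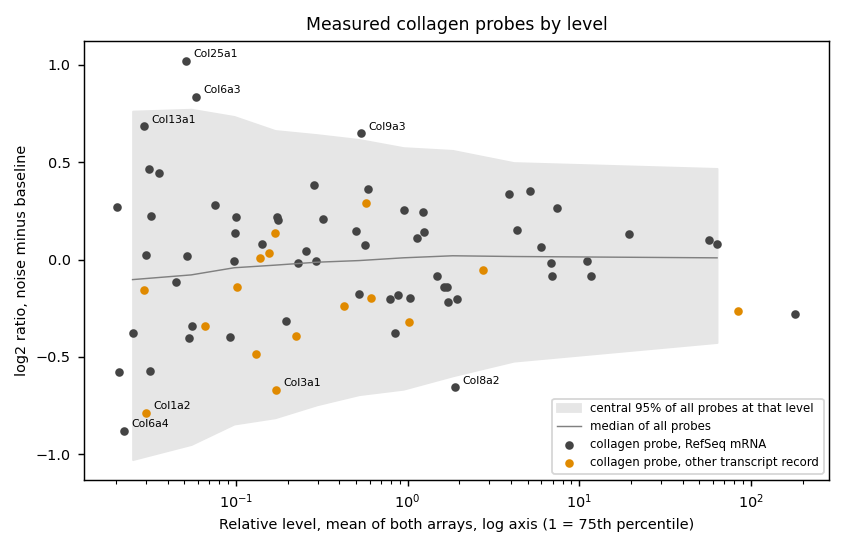
Log2 ratio (noise minus baseline) of every measured collagen probe against its mean relative level (log axis), coloured by whether the probe was designed on a RefSeq mRNA or on another transcript record. The line and grey band give the median and the central 95% of all probes of like level. The Col25a1, Col6a3, Col9a3 and Col8a2 probes lie outside the band, and only the Col25a1 probe passes 2-fold, at 1.02.

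The genes that make, cross-link, bind and break down collagen were read through 6 lists. No measured gene of the 6 lists reached 2-fold, against 1.86% of all genes measured. In lists of this size, a count of 0 is close to that background. The median over all genes was -0.014. The chaperones and modifying enzymes, which hydroxylate, glycosylate and fold the chains in the endoplasmic reticulum, had a median of 0.026 over 20 of 20 measured, with 11 above 0 and 9 below. They ran from Crtap, a partner of prolyl 3-hydroxylase, at -0.32 to P3h1, that enzyme itself, at 0.24. Of the 20, 18 lay within 0.25 of 0.

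The list of procollagen processing and cross-linking enzymes lay lowest, with a median of -0.18 over 11 of 13 measured, 4 above 0 and 7 below. Tll1, a protease that trims procollagen, read 0.158 (noise) and 0.266 (baseline), a ratio of -0.75. It was the 1 member of 11 past 1.5-fold, against 8.01% of all genes. The highest was Adamts2, the procollagen N-proteinase, at 0.23. Tll2 and Adamts3 were not measured. Receptors and uptake proteins had a median of 0.18 over 11 of 11, with 9 above 0 and 2 below. They ranged from Itga11, the integrin alpha 11 chain, at -0.39 to Itga2, the integrin alpha 2 chain of the platelet collagen receptor, at 0.91. Itga2 was dim, at 0.0671 (noise) and 0.0356 (baseline).

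Collagen-binding matrix proteins had a median of 0.19 over 15 of 16 measured, with 11 above 0 and 4 below. They ran from Bgn, the proteoglycan biglycan, at -0.43 to Fn1, fibronectin, at 0.57, and Matn3 was not measured. The collagen-degrading proteases had a median of 0.19 over 7 of 8 measured, with 4 above 0 and 3 below. Mmp13, a collagenase of bone and cartilage, read 3.51 (noise) and 2.05 (baseline), a ratio of 0.78. It was the 1 member of 7 past 1.5-fold, against 8.01% of all genes. The lowest, Mmp2, the gelatinase A, lay at -0.10. Mmp1a was not measured. Without replicates, none of these list medians could be set against a spread between animals.

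**Figure D5:**
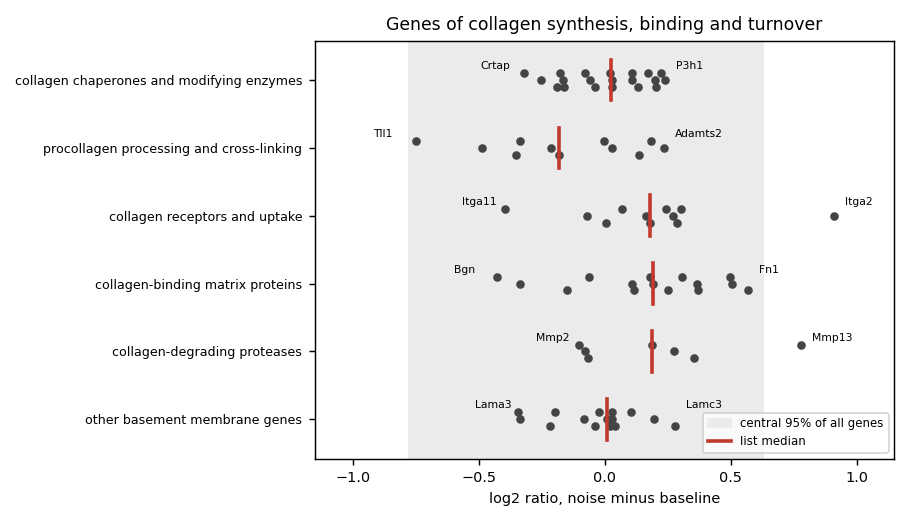
Log2 ratio (noise minus baseline) of the measured genes of the 6 collagen pathway lists, 1 point per gene, with a bar at each list's median. The medians run from -0.18 for processing and cross-linking to 0.19 for the matrix-binding and protease lists, and no point passes 2-fold.

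Markers of skeletal muscle and fat had lower medians than any collagen class. All 8 skeletal muscle markers were below 0, with a median of -1.03 and a summed level of 5.09 (noise) and 10.3 (baseline). Of these 8, 5 were at least 2-fold lower, against 1.25% of all genes measured. All 6 adipocyte markers were below 0, with a median of -1.46 and a summed level of 11.0 (noise) and 41.2 (baseline). Of these 6, 5 were at least 2-fold lower, against the same 1.25% of all genes. Markers of fibroblasts, which make much of the type I, III and VI collagen of soft tissue, differed little, with a median of 0.11 over 8 of 8 measured. Their summed level was 121 (noise) and 112 (baseline), most of it from Dcn at 93.9 (noise) and 86.6 (baseline). The part of these tissues in the collagen values was not tested.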

How the data were processed

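Total RNA from cochleae was labelled with Cy3 and read on 1-colour Agilent mouse arrays, 1 array per group. Spot intensity values were deposited as scanner files made with Agilent Feature Extraction 11.5.1.1, per the file headers, which also subtracted the background and detrended each array. A value table deposited by the authors gives the arrays on a log2 scale, and each of its columns equalled log2 of the processed signal minus a constant of 8.30 (noise) or 8.12 (baseline). Its column medians were -2.81 (noise) and -2.79 (baseline), with no centring per gene.

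Of 62976 spots per array, 59305 were no controls. Outlier flags removed 77 (noise) and 58 (baseline), and 0 spots were saturated. The 75th percentile of the processed signal was 316 (noise) and 278 (baseline), and 75.3% (noise) and 75.2% (baseline) of probes were well above background. Repeat spots were averaged on the log2 scale, each array's 75th percentile was subtracted, and a gene took the median over probes well above background on both arrays, with pandas 2.3.3. The alternative with normexp background (offset 50) used limma 3.58.1 in R 4.3.3. The gene step was tested on simulated data. No test was possible with 1 array per group, so sizes of 2-fold and 1.5-fold were counted.

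The members, classes, lists and alternatives were chosen with earlier results of these data known. Named were every chain of types I, II, IV, IX and XI, the highest and lowest gene of each class, genes above background on 1 array, genes whose probes differed in direction by over 1, and the highest and lowest gene of each list. Any other gene was named with its values in view. Gene names are those of the array design, and exon positions on mm9 are not given because its annotation was not used here.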

Additional observations from a re-analysis of the deposited data

How the results depend on the processing

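No collagen gene passed 2-fold under any of the 10 alternatives, and Col25a1 and Col6a4, the genes past 1.5-fold, kept their sign, at 0.15 to 0.86 and -0.88 to -0.21, Col6a4 not being measured under the stricter filter. Their place past 1.5-fold was not stable. Col25a1 fell to 0.25 with the brightest probe, and Col6a4 to -0.51 without the filter on dim probes. Other genes passed 1.5-fold under some alternatives, such as Col9a3 at 0.65 and Col8a2 at -0.66 with the brightest probe, and Col17a1 at -0.97 without the filter. Of 714 values recomputed, 638 stayed within a set limit. The limit was the probe SD of 0.27 for single genes, the spot SD of 0.053 for medians and a 1.5-fold ratio for counts. The limit for genes is wide, and all 43 genes stayed within it under spike-in scaling. The authors' value table, also among the alternatives, differs from the processed signal by a constant per array, so its values were bound to stay. Without the filter on dim probes, the median was 0.052 for type IV and 0.060 for the degrading proteases. The fibrillar median was -0.18 with a stricter filter and -0.087 with the brightest probe of each gene. Normexp background gave -0.059 for all collagens, -0.096 for fibrillar chains, -0.020 for type IV and 0.099 for receptors. It moved the median of all genes to -0.063 as well, so the collagens differed from all genes by 0.0035. Among smaller sets, the multiplexin median of -0.11 turned to 0.25 with the stricter filter and 0.0054 with normexp. RefSeq mRNA probes only, an alternative chosen after seeing the data, gave 0.12 for receptors. Spike-in scaling gave 0.24 for all collagens, 0.27 for fibrillar, 0.35 for type IV and 0.49 for cartilage types; for the lists it gave 0.25 (chaperones), 0.040 (processing), 0.40 (receptors), 0.41 (matrix-binding), 0.41 (proteases) and 0.23 (other basement membrane), because it adds 0.22 to every ratio. The normexp offset of 50 draws dim ratios toward a common value by construction. How much of the normexp shifts came from it, and the cause of the other shifts, was not tested. The number of collagens above 0 ran from 16 (normexp) to 34 (spike-in), against 35.1% and 78.4% of all genes. No paired analysis was possible because noise and baseline were 1 array each, and no replicate could be left out.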

Other observations

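For 11 collagen genes, probes designed on an Ensembl transcript record stood beside probes designed on a RefSeq mRNA, a split chosen after the values were seen. The Ensembl probes had the lower log2 ratio in 10 of the 11 (90.9%), with a median difference of -0.28 and a range of -0.69 to 0.09, and Col4a4 was the exception. Over all 2812 genes with both kinds of probe, the Ensembl probes were lower in 48.6%, with a median difference of 0.0091. The dim Col3a1 and Col1a2 probes described above are among the Ensembl probes. A dim RefSeq probe with a high ratio enters other differences, at 0.84 for Col6a3, 0.68 for Col13a1 and 0.22 for Col26a1. Beside the brighter RefSeq probe of Col13a1, at -0.083, its Ensembl probe was higher, at 0.0098. For Col6a3 and Col26a1 the Ensembl probe was still lower, at -0.34 against -0.14 and -0.20 against -0.18.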
